A study of Homo sapiens with 6 samples.

Results

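NONO, its paralogs SFPQ and PSPC1, the nuclear RNA genes NEAT1 and MALAT1, and the paraspeckle protein genes RBM14 and TARDBP were examined as chromatin loci in lists of called regions from CUT&Tag of NONO, H3T11ph and H3K27ac. The members were the 7 genes, chosen by name, out of 59098 genes on chromosomes 1 to 22 and X, and every called region that overlapped a gene span extended by 5 kb on each side was kept. This gave 210 regions of 998906 in the 6 lists. In CUT&Tag an antibody brings the transposase Tn5 to its antigen, and the DNA fragments released there are sequenced. The cells were MDA-MB-231, an established human triple-negative breast cancer line. NONO was mapped in negative control (NC) cells and in cells with NONO knocked down (NONO-KD). H3T11ph and H3K27ac were mapped in NC cells and in cells with PKM2 knocked down (PKM2-KD). The methods describe both shRNA and siRNA against each gene with scrambled or nonspecific controls, and which of them was used for CUT&Tag is not given in the sources used here. The PKM2-KD cells carried no NONO knockdown according to the labels, and NONO was not mapped in them. Each of the 6 groups was 1 library, so no test between groups was possible and the values below describe these libraries.

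NONO, SFPQ and PSPC1 are the DBHS proteins, RNA- and DNA-binding partners that pair with one another and sit on transcribed chromatin as well as in paraspeckles. Paraspeckles are nuclear bodies built on the long noncoding RNA NEAT1, and NONO and SFPQ are needed to form them, whereas PSPC1 is a marker of them. MALAT1 is a neighbouring, very abundant nuclear RNA of the adjoining speckles. RBM14 is a coactivator and paraspeckle protein, and TARDBP encodes the RNA-binding protein TDP-43. H3K27ac is an acetylation of histone H3 at active promoters and enhancers, and H3T11ph is a phosphorylation of histone H3 that PKM2 can place. The lists map the antigen on DNA and give no level of any transcript or protein, so they do not measure how far NONO or PKM2 was reduced.

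Depth was recovered from the lists as fragments per kb of genome, with the narrowest width of a list taken as its fragment length. It ran from 2.84 to 3.42 in the 4 NONO and H3T11ph libraries and was 7.46 and 7.48 in the 2 H3K27ac libraries. The narrowest width made up 94.6% of the regions of NONO NC (269 bp) and 79.3% of those of H3K27ac NC (112 bp), against 1.19% to 2.05% of the other 4 lists. The NONO and H3K27ac lists of NC and knockdown cells were therefore not formed alike, and the knockdown cannot be told apart from that difference in them. The 2 H3T11ph lists had the same form. Of the 34 member regions of NONO NC, 26 were of the narrowest width, as were 46 of the 78 of H3K27ac NC. Among the member regions of the other 4 lists this was true of 1 in NONO NONO-KD, 1 in H3T11ph PKM2-KD and 0 in H3T11ph NC and H3K27ac PKM2-KD. Below, the fold of a region is the authors' enrichment at its summit over the local background of the same library. It was read as pileup plus 1 over background plus 1, which lowers it most where the background is small. The commonest background was 0.899 fragments in NONO NC and 0.278 in NONO NONO-KD, so folds of these 2 lists are not on one scale. Folds of the 2 H3K27ac lists are not on one scale either, because the H3K27ac NC pileup had been multiplied by 0.521 before calling. This holds for every H3K27ac fold set side by side below. The pileup is the number of overlapping fragments at the summit, recovered from the fold and p. Its 95% Poisson interval covers counting error only.

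NEAT1 held the most NONO regions of the 7 genes in both NONO libraries. In NONO NC there were 20 at NEAT1, 6 at MALAT1, 5 at PSPC1, 1 each at SFPQ, RBM14 and TARDBP and 0 at NONO itself. In NONO NONO-KD there were 6 at NEAT1, 3 at PSPC1, 2 each at NONO and SFPQ, 1 each at MALAT1 and RBM14 and 0 at TARDBP. H3T11ph was also called most often at NEAT1, 7 times in NC and 8 times in PKM2-KD. At MALAT1 it was called 1 time in NC and 6 times in PKM2-KD. H3K27ac was called at each of the 7 genes in both libraries, and most often at PSPC1 in NC (29 regions over a window of 122 kb) and at NEAT1 in PKM2-KD (23 regions over 32.7 kb).

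**Figure D1:**
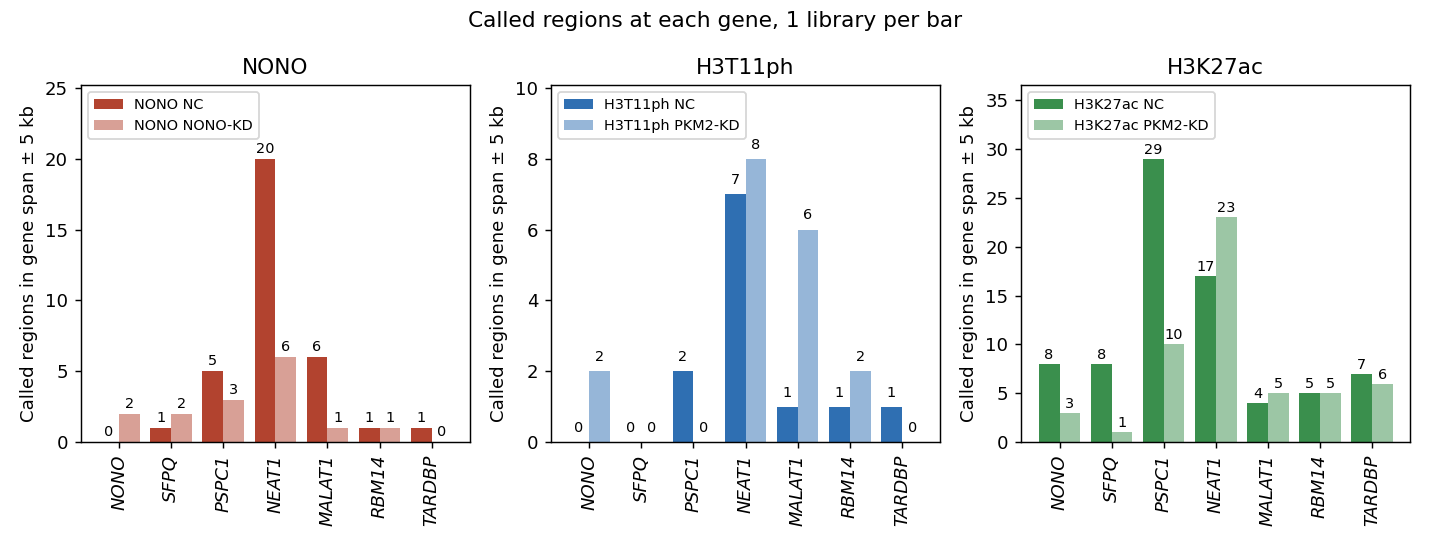
Number of called regions (y axis) in the span of each gene extended by 5 kb (x axis), with 1 panel per antigen, dark bars for NC and pale bars for the knockdown, and 1 library per bar. NEAT1 has the highest bars for NONO (20 and 6) and H3T11ph (7 and 8), and NONO itself has 0 NONO regions in NC and 2 in NONO-KD.

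Having a region somewhere in the window was common among genes in general. NONO NC had one at 6 of the 7 members, against 55.5% of the 59098 genes and 77.1% of the 19974 protein-coding genes. NONO NONO-KD had one at 6 members, against 34.6% and 51.5%. H3T11ph NC had one at 5 members, against 36.4% and 56.6%. H3T11ph PKM2-KD had one at 4 members, against 33.9% and 53.2%. H3K27ac NC had one at 7 members, against 91.7% and 97.4%, and H3K27ac PKM2-KD also at 7, against 70.2% and 89.6%. In density, the members' median was 0.411 NONO NC regions per 10 kb of window, against a median of 0.379 over protein-coding genes, and 0.533 against 0.0596 in NONO NONO-KD. For H3T11ph the medians were 0.359 against 0.103 in NC and 0.726 against 0.0702 in PKM2-KD. For H3K27ac they were 2.51 against 2.41 in NC and 2.15 against 0.943 in PKM2-KD. The medians of the sparse lists rest on few regions. The 0.726 was that of NONO, with 2 regions in 27.5 kb, and the 0.533 that of MALAT1, with 1 in 18.8 kb. The 0.0702 and 0.0596 lie near the floor, since 53.2% and 51.5% of protein-coding genes had any region. The 5 protein-coding members and the 2 RNA genes differed widely within these medians. NONO NC density was 6.11 regions per 10 kb at NEAT1 and 3.20 at MALAT1, and lay between 0 and 0.429 at NONO, SFPQ, PSPC1, RBM14 and TARDBP.

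NEAT1 (chr11:65422798-65445540, hg38, a lncRNA gene transcribed towards higher coordinates) stood near the top of all genes in 5 of the 6 lists by density. At least as many NONO NC regions per kb were found at 0.0338% of all genes, and at least as large a covered share (21.7% of the window) at 0.140%. The density share was 0.915% for NONO NONO-KD. It was 0.596% and 0.469% for H3T11ph in NC and PKM2-KD, and 5.47% and 0.396% for H3K27ac. Positions at NEAT1 are given from the gene end with the lower coordinate.

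The 20 NONO NC regions were spread from -5.22 to 27.9 kb, over the gene body and both flanks. Of these, 3 lay wholly upstream, 5 overlapped the gene with a summit below 8.5 kb (1 of them across the start, with its summit at -0.0920 kb), 8 lay in the rest of the gene and 4 beyond its end. The highest fold was 77.5 (pileup 150 fragments, 127 to 176) at 26.4 to 26.7 kb, beyond the gene end. Inside the gene the highest was 61.6 (119 fragments, 98.6 to 142) at 11.7 kb. The largest pileup, 309 fragments (276 to 345), was upstream starting at -2.86 kb, where the fold was 25.4. The region on the start of the gene, at -0.108 to 0.160 kb, had a fold of 8.33 and 96 fragments (77.8 to 117).

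Fold and pileup ordered these regions differently because the local background changed along the locus. In the 8 NONO NC regions upstream and in the first 8.5 kb the background was between 5.87 and 12.4 times the commonest background of the library, and fold ran from 4.59 to 25.4. In the 12 further on it was between 1.00 and 1.91 times, and fold ran from 9.36 to 77.5. The same order was seen in H3T11ph NC, where the upstream region had 21.2 times the commonest background, the first 8.5 kb between 2.83 and 10.3 times, and the regions beyond the end 1.00 times. In H3T11ph PKM2-KD 1 region at 18.2 to 18.3 kb went against it, with 16.9 times. The source of this background was not tested.

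**Figure D2:**
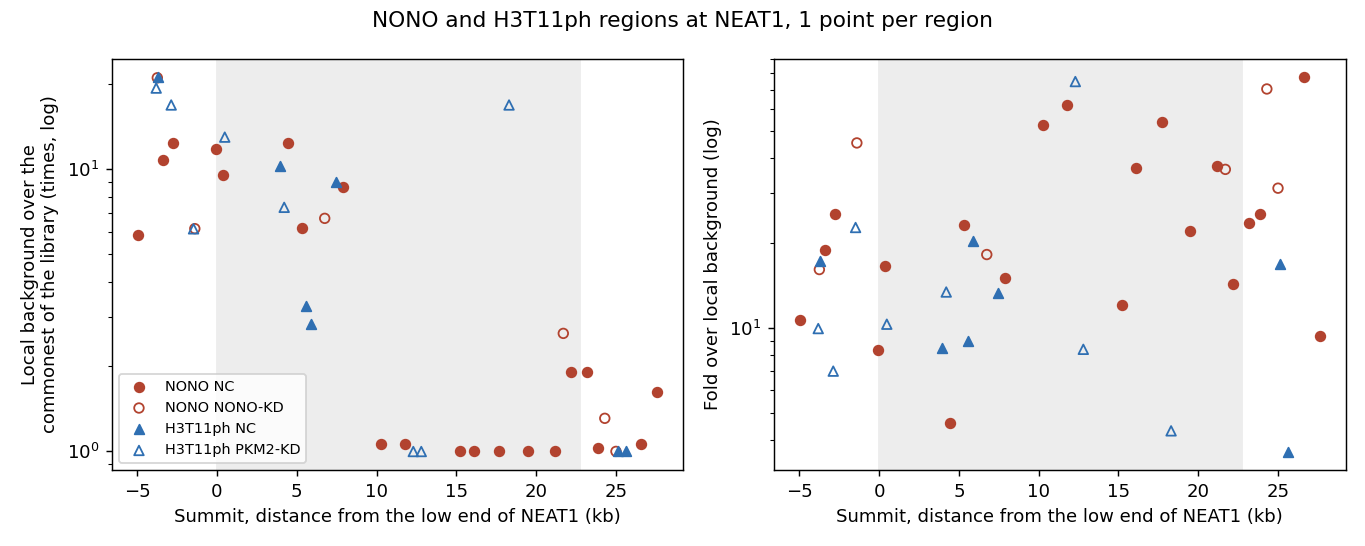
NONO and H3T11ph regions at NEAT1, 1 point per region, by summit position in kb from the end of NEAT1 with the lower coordinate; the left panel gives the local background as a multiple of the commonest of the library and the right panel the fold, both on log axes, with the gene span in grey. NONO NC points (filled circles) sit between 5.87 and 12.4 times background up to 8.5 kb and between 1.00 and 1.91 times after it.

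NONO NONO-KD had 6 regions at NEAT1, and 2 of them overlapped a NONO NC region. One lay at -3.90 to -3.71 kb, with a fold of 16.1 and 110 fragments (90.4 to 133) against 18.9 and 202 fragments (175 to 232) in the overlapping NC region at -3.79 to -3.25 kb. The other lay at 21.7 to 21.9 kb (chr11:65444462-65444658), with a fold of 36.5 and 62 fragments (47.5 to 79.5). The NC region there (chr11:65444395-65444980) had 14.3 and 38 fragments (26.9 to 52.2). These regions cover most or all of MIR612 (chr11:65444458-65444557), a miRNA gene inside NEAT1. The NC summit was at the far edge of its region, 22.2 kb from the gene's lower end, and the NONO-KD summit at 21.7 kb. Pileups are not scaled between libraries. Depths were 3.34 and 2.84 fragments per kb in NONO NC and NONO NONO-KD, but the commonest background was 0.899 and 0.278 fragments. The depths therefore do not give the scale between these pileups. The 4 remaining NONO-KD regions lay at -1.47 to -1.35 kb (fold 45.3), 6.70 to 6.80 kb (18.2), 24.3 to 24.4 kb (70.4) and 24.9 to 25.2 kb (31.3). None of them overlapped a NONO NC region, although 3 of the 4 overlapped H3K27ac in both libraries.

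One stretch upstream of NEAT1 was covered in all 6 lists. It was 88 bp long, chr11:65419005-65419092, at -3.79 to -3.71 kb, and was 1 of 137 such stretches in the genome. A stretch of this kind lay in the window of 94 genes, or 0.159% of all genes, and of 56 protein-coding genes, or 0.280%. NEAT1 was the 1 member of 7 with one. For NONO, the region over it had a fold of 18.9 in NC and 16.1 in NONO-KD. H3T11ph had 17.2 there in NC and 9.94 in PKM2-KD. H3K27ac had 12.1 and 8.27. The local background under these regions, in the order just given, was 10.8, 21.1, 21.2, 19.4, 20.3 and 40.7 times the commonest of the library. It was high in all 6 libraries whatever the antibody, and its part in the shared call was not tested.

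Of the 7 H3T11ph NC regions at NEAT1, the 1 overlapped by one of the 8 of PKM2-KD was that on the shared stretch. The highest NC fold was 20.4 (41 fragments, 29.4 to 55.6) at 5.88 to 5.99 kb. The highest in PKM2-KD was 74.8 (97 fragments, 78.7 to 118) at 12.2 to 12.4 kb, where neither H3T11ph NC nor another list had a region. The PKM2-KD list also had a region in the first part of the gene, at 0.337 to 0.530 kb (fold 10.3), inside the NONO NC region at 0.318 to 0.586 kb (fold 16.6, 158 fragments).

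H3K27ac covered 19.7% of the NEAT1 window in NC and 38.3% in PKM2-KD. The highest fold of both lists was just upstream of the gene, 25.1 in NC (175 fragments, 150 to 203) at -1.77 to -0.467 kb and 34.4 in PKM2-KD (212 fragments, 184 to 243) at -1.81 to -0.467 kb. NONO NC had no region there. NONO NONO-KD and H3T11ph PKM2-KD did, with folds of 45.3 and 22.7. Of the 17 H3K27ac NC regions, 15 were overlapped in PKM2-KD. A second group of H3K27ac regions lay at the far end of the gene and beyond it. Between 20.9 and 26.5 kb the NC fold was at most 8.32, and the PKM2-KD fold reached 17.4 at 21.6 kb.

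**Figure D3:**
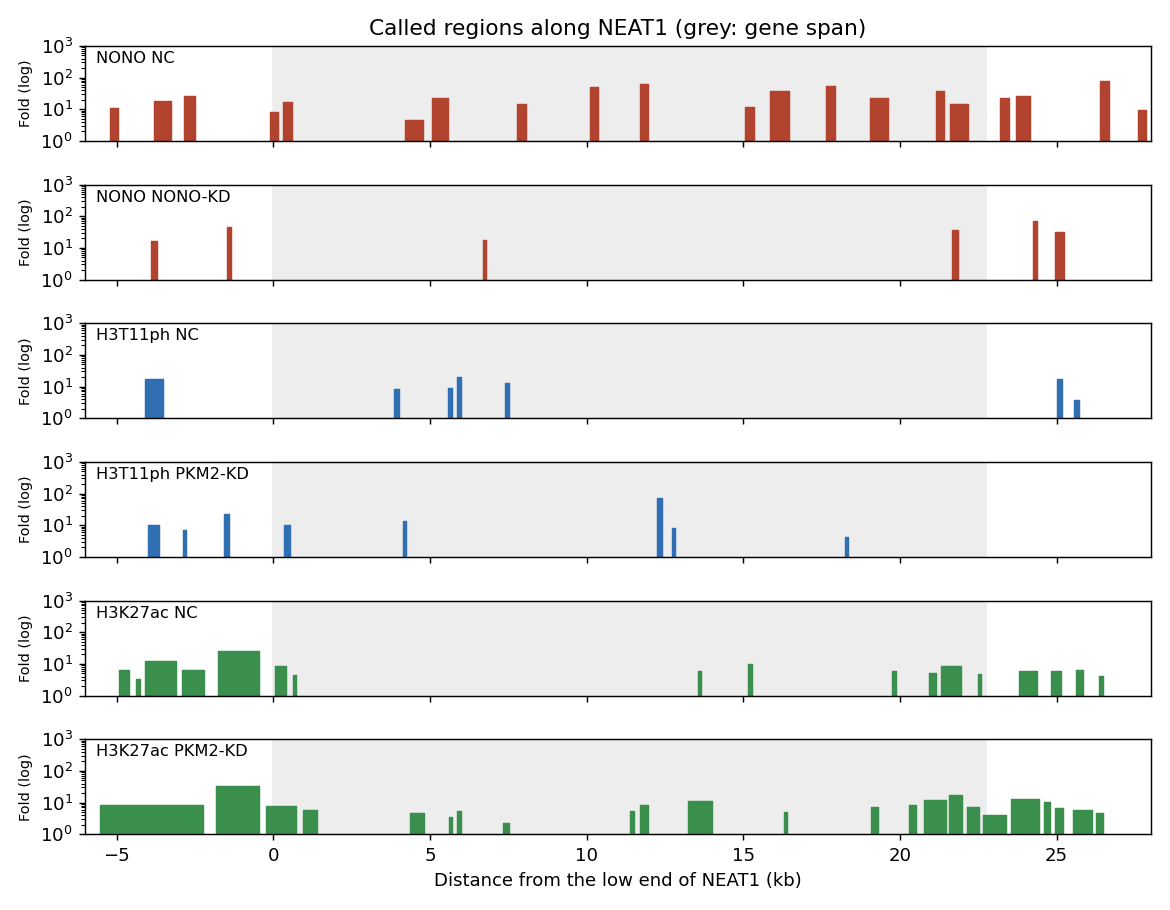
Called regions along NEAT1 in the 6 lists, each drawn over its true extent (x axis, kb from the gene end with the lower coordinate) with its fold as height (log axis); the gene span is grey. NONO NC regions run through the locus, H3K27ac clusters upstream and at the far end, and the bars at -3.79 to -3.71 kb line up in all 6 panels.

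MALAT1 (chr11:65497738-65506516, hg38, a lncRNA gene that begins 52.2 kb beyond NEAT1) was flanked upstream by the highest H3K27ac folds of the 7 genes. One H3K27ac NC region of 7497 bp reached from -10.3 to -2.78 kb of the first start, with a fold of 90.2, and its pileup could not be recovered. PKM2-KD had there a region of 6628 bp (fold 53.6, 396 fragments, 358 to 437) and, at -3.86 to -3.00 kb, another of 858 bp (fold 98.2, 315 fragments, 281 to 352). The strongest NONO NC region of the locus lay inside the NC region and the 858-bp PKM2-KD region, at -3.50 to -3.23 kb, with a fold of 51.8 and 172 fragments (147 to 200). The single H3T11ph NC region lay beside it at -3.78 to -3.65 kb, with a fold of 75.9 and 149 fragments (126 to 175), the highest H3T11ph NC fold of the members. These 2 regions did not overlap, and neither was called again in the knockdown list.

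Over the gene itself NONO NC was called at 0.596 to 0.864 kb (fold 44.2, 120 fragments, 99.5 to 143), inside H3K27ac regions of both lists, and at 6.61 to 6.88 kb (fold 11.6). The 3 other NONO NC regions lay beyond the gene end, with folds of 5.43 to 9.72. NONO NONO-KD had 1 region, on the first start at -0.0440 to 0.144 kb, with a fold of 12.9 and 43 fragments (31.1 to 57.9). H3T11ph PKM2-KD was called on the second start, ending at 1.44 kb, with a fold of 51.1 and 80 fragments (63.4 to 99.6). It was called more weakly before the first start (fold 2.18, background 39.5 times the commonest). The same was true at 4 places from 8.42 to 10.7 kb (folds 5.83 to 12.5, backgrounds 7.72 to 11.7 times). The region at 8.42 to 8.51 kb overlaps MASCRNA (chr11:65506117-65506174), the small RNA cut from the MALAT1 transcript, and TALAM1, the antisense gene, spans most of the gene. The lists carry no strand, so the genes cannot be told apart. With 1 H3T11ph region against 6, the MALAT1 window was the one in which the H3T11ph counts of the members were furthest apart.

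**Figure D4:**
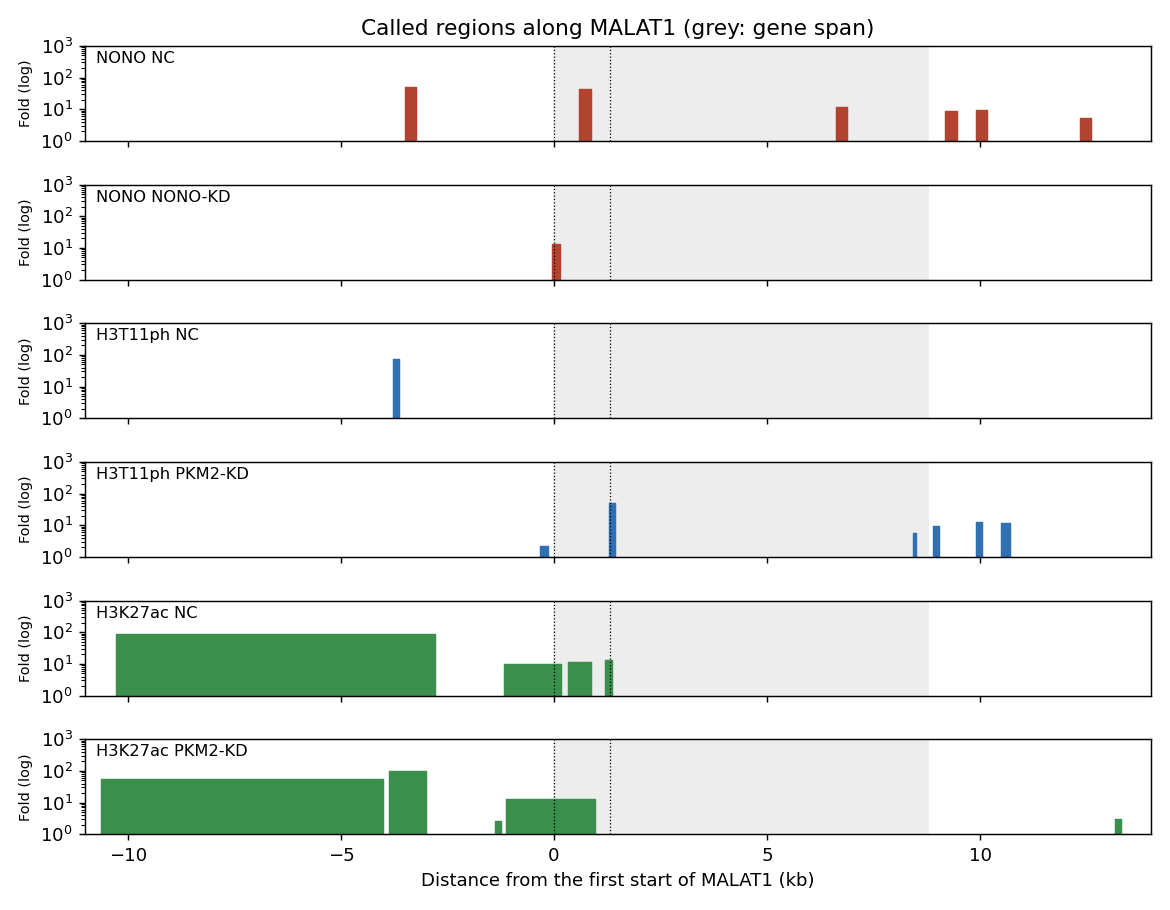
Called regions along MALAT1 in the 6 lists, with position from its first start in kb (x axis), fold as height (log axis), the gene span in grey and dotted lines at the 2 annotated starts. The wide H3K27ac regions upstream reach folds of 90.2 and 98.2, and NONO NC (51.8) and H3T11ph NC (75.9) have their highest bars under them.

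Regions of at least 2 times the narrowest width of their list were found, among the NONO and H3T11ph lists, at the RNA genes and not at the protein-coding members. All 13 lay at NEAT1 (11) or MALAT1. NONO NC had 5 and NONO NONO-KD 3, all at NEAT1. By gene this was 1 of the 7 members in each list, against 2.72% and 2.98% of all genes with such a region. H3T11ph NC had 1, at NEAT1, and H3T11ph PKM2-KD had 4, with 2 each at NEAT1 and MALAT1. By gene this was 1 and 2 of the 7 members, against 5.70% and 5.49% of all genes. This look at width was chosen after the values were seen.

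At NONO (chrX:71283635-71301168) no NONO NC region was called, whereas NONO NONO-KD had 2. One was at -435 to -319 bp from the start (fold 55.4, 98 fragments, 79.6 to 119), the other inside the gene at 5.79 to 5.89 kb (fold 34.4, 43 fragments, 31.1 to 57.9). The upstream one lay in an H3K27ac NC region (fold 5.88, 22 fragments, against a median fold of 4.33 over that list). H3T11ph was not called in NC and was called 2 times in PKM2-KD, at 8.81 to 8.94 kb (fold 30.5) and beyond the gene end (fold 18.3). H3K27ac NC had 8 regions, and PKM2-KD had 3. Just inside the gene both lists had one, with folds of 6.75 and 6.29, and both also had one deeper in the gene, from 9.15 kb in NC and 9.21 kb in PKM2-KD, with folds of 11.2 and 9.76. The highest PKM2-KD fold was 11.9, at 8.59 to 8.71 kb, where NC had no region. The neighbour ITGB1BP2 lies in the same window.

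At SFPQ (chr1:35176380-35193145, transcribed towards lower coordinates) the 1 NONO NC region had the highest fold of the 210 regions. It lay 737 bp beyond the gene end with the higher coordinate, at chr1:35193882-35194150, with a fold of 152 and 287 fragments (255 to 322), and its background was 1.00 times the commonest. NONO NONO-KD had an overlapping region 873 bp from that end, with a fold of 36.7 and 49 fragments (36.3 to 64.8). It was the third and last place where a NONO NC region of the members was met again in NONO NONO-KD. H3T11ph had 0 regions at SFPQ in both libraries. H3K27ac at that gene end was a single region of 1359 bp in PKM2-KD (fold 33.7, 65 fragments, 50.2 to 82.8) and 2 narrower ones in NC, with folds of 7.01 and 4.41. In neither list did H3K27ac reach the NONO region.

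PSPC1 (chr13:19671205-19782945, transcribed towards lower coordinates) is the longest of the 7 genes. Its 5 NONO NC regions were all inside the gene, with folds of 92.7, 75.3, 70.7, 13.7 and 6.32 and pileups of 11 to 194 fragments, and the nearest was 3311 bp from the start. The 3 NONO NONO-KD regions had folds of 70.4 and 58.7 inside the gene and 24.3 (30 fragments, 20.2 to 42.8) at 43 bp before the start, and none overlapped a NONO NC region. H3T11ph NC was called 193 bp into the gene (fold 30.0, 42 fragments, 30.3 to 56.8) and once more inside it (fold 34.6). H3T11ph PKM2-KD had 0 regions in the window. H3K27ac covered the start itself in both lists, with a fold of 6.87 in NC and 9.22 in PKM2-KD, and a region 564 bp into the gene reached 15.7 in PKM2-KD against 5.05 for the NC region it overlapped. The window of PSPC1 also overlaps the neighbours MPHOSPH8 and RN7SL166P.

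RBM14 (chr11:66616630-66629934) and TARDBP (chr1:11012654-11030528) had few NONO and H3T11ph regions. At RBM14, NONO NC had 1 inside the gene at 9.32 to 9.59 kb (fold 35.3, 66 fragments, 51.0 to 84.0). NONO NONO-KD had 1 at -228 to -37 bp from the start, with 160 fragments (136 to 187) but a fold of 11.4, since its background was 47.1 times the commonest of the library, the highest of any member region. H3T11ph NC had 1 region (fold 28.7), and the PKM2-KD list 2 (folds 43.5 and 24.4), none within 1 kb of the start. The window of RBM14 also overlaps the readthrough gene RBM14-RBM4. At TARDBP, NONO NC had 1 region inside the gene (fold 18.4, 34 fragments) and H3T11ph NC 1 beyond its end (fold 40.1), and both knockdown lists of these antigens had 0. H3K27ac covered the TARDBP start in both lists, with 745 bp and a fold of 4.85 in NC (22 fragments, 13.8 to 33.3) and 1081 bp and 13.8 in PKM2-KD (55 fragments, 41.4 to 71.6). The window of TARDBP also overlaps the neighbour MASP2.

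Starts were then compared across the genes with a start in the RefSeq promoter table (GRCh38.p14), which lists 27195 genes and 5 of the 7 members; NEAT1 and SFPQ were measured from both gene ends instead. Within 1 kb of a listed start, NONO NC had a region at 1 of these 5 members (MALAT1), against 18.6% of the genes of the table. NONO NONO-KD had one at 4 of 5 (NONO, PSPC1, MALAT1 and RBM14), against 6.40%. H3T11ph NC had one at 1 (PSPC1), against 12.8%, and H3T11ph PKM2-KD at 1 (MALAT1), against 13.0%. H3K27ac had one at 5 of 5 in both lists, against 63.2% in NC and 51.8% in PKM2-KD. The highest H3K27ac fold within 1 kb of a start, or of either end for NEAT1 and SFPQ, was 6.75 in NC and 6.29 in PKM2-KD at NONO, 7.01 and 33.7 at SFPQ, 6.87 and 15.7 at PSPC1, 25.1 and 34.4 at NEAT1, 12.9 and 13.0 at MALAT1, 10.1 and 6.75 at RBM14, and 4.85 and 13.8 at TARDBP. Folds of these 2 lists are not on one scale, because the pileup of H3K27ac NC had been multiplied by 0.521 before calling.

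**Figure D5:**
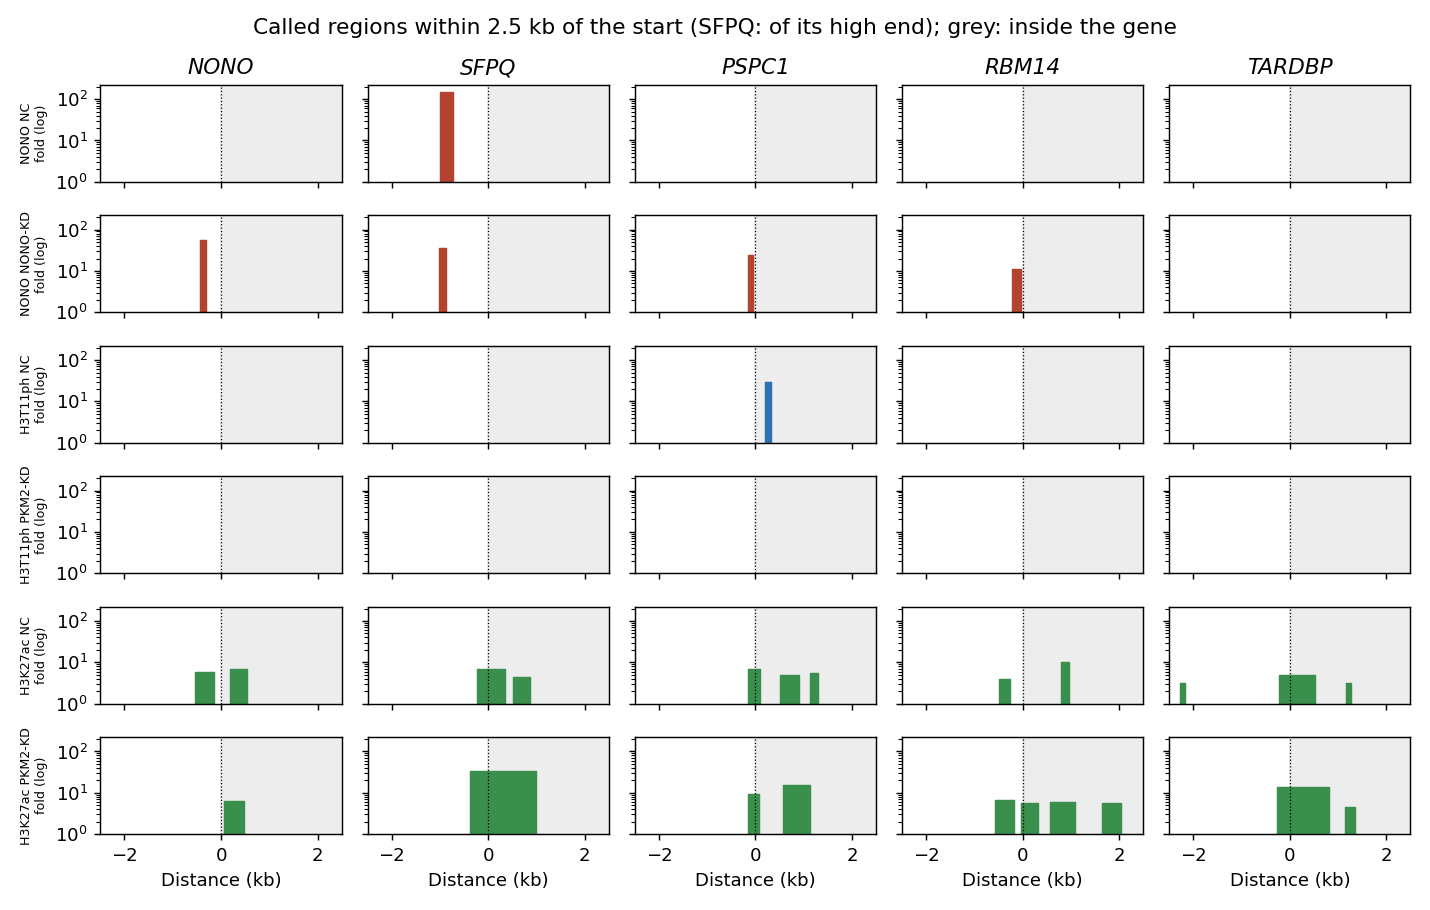
Called regions within 2.5 kb of the start of 5 protein-coding members (columns; for SFPQ, of the gene end with the higher coordinate) in the 6 lists (rows), with distance in kb (x axis, the gene to the right in grey) and fold as height (log axis). NONO NONO-KD has a bar before the line at NONO, SFPQ, PSPC1 and RBM14, and H3K27ac lies on or beside the line in each column.

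The promoters are printed 5′ to 3′ from RefSeq (GRCh38.p14), to show where within each one the region fell. Capitals mark the bases inside the called region. For NONO this is the H3K27ac NC region (chrX:71283385-71283634, plus strand), since the NONO-KD region ends just before the window. For PSPC1 (chr13:19782946-19783195, minus strand), RBM14 (chr11:66616380-66616629, plus strand) and the first start of MALAT1 (chr11:65497488-65497787, plus strand) it is the NONO NONO-KD region. For the second start of MALAT1 (chr11:65498795-65499094, plus strand) it is the H3T11ph PKM2-KD region.
NONO: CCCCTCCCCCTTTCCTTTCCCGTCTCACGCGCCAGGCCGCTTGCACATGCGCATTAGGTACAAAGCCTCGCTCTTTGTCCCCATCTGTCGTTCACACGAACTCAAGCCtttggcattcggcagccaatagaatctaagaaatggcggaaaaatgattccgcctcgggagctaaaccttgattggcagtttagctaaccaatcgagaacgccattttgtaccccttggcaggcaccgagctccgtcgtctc
PSPC1: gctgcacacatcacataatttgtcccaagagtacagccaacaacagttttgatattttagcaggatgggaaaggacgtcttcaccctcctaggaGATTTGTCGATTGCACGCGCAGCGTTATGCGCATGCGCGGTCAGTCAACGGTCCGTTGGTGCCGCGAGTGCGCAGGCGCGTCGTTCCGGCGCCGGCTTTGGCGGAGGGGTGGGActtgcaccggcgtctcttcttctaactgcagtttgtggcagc
RBM14: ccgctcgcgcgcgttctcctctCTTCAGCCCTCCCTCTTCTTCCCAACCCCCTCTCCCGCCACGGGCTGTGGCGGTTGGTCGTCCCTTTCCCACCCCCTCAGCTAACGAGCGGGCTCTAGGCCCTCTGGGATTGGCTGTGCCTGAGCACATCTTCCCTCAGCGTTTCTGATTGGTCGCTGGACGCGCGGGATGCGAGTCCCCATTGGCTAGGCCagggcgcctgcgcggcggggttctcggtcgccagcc
MALAT1 first start: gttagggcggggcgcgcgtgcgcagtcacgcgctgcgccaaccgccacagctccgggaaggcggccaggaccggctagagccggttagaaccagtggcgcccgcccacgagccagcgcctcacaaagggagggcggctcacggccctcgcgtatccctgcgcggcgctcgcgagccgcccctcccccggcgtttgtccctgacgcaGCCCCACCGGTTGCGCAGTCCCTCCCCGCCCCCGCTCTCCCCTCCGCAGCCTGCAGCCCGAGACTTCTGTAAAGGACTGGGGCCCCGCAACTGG
MALAT1 second start: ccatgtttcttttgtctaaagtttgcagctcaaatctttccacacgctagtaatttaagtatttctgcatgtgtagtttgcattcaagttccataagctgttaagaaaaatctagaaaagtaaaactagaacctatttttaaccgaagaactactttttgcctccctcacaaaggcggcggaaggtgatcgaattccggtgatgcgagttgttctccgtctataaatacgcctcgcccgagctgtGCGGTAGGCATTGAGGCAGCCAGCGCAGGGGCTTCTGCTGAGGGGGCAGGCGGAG
The first 3 stop at the base before the start, and the MALAT1 windows go on to 50 bases after it.

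Whether regions follow particular letters was not tested. The letters of 7 motifs were searched on both strands of the 300 bases around each start, from 250 before to 50 after. The CCAAT box (CCAAT) was found 3 times at NONO and 3 times at RBM14, against at least 1 match in 34.6% of the 34961 promoters of the table and at least 3 in 3.26%. At RBM14 the 3 matches lie inside the NONO NONO-KD region, and at NONO 0 of 3 lie in the H3K27ac NC region. The GC box (GGGCGG) was found 5 times at the first start of MALAT1 and 1 time at TARDBP, against at least 1 in 45.0% of promoters and at least 5 in 5.14%. TATAAA was found at the second MALAT1 start, 30 bases before it, against 11.5% of promoters. ATGCAAAT, CCGGAAG, TGACGTCA and CACGTG were not found in the 6 windows. GC content was 73.7% at the first MALAT1 start and 46.0% at the second, and 56.3% to 66.7% at the 4 protein-coding starts, with a median of 58.7% over the table.

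Over the 7 windows together, NONO was called 34 times in NC and 15 times in NONO-KD, so that the knockdown list had 44.1% as many regions (22.3% to 83.2%, exact binomial 95% interval of the ratio of the counts), against 49.6% over the whole lists. H3T11ph was called 12 and 18 times (150%, 68.4% to 341%), against 85.7% over the whole lists. MALAT1 alone had 1 and 6 of these regions, and NEAT1 had 7 and 8. H3K27ac was called 78 and 53 times (67.9%, 47.0% to 97.6%), against 37.1%. The H3K27ac regions nevertheless covered more bases in PKM2-KD, 24.8 kb against 20.2 kb. These intervals cover counting error only, and regions of 1 gene are not independent. With each pair of lists cut to equal length by p, the ratio was 75.0% for NONO (35.7% to 154%) and 113% for H3K27ac (74.7% to 171%), and both intervals include equal counts.

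A region called in NC was seldom met at the same place in the knockdown list for NONO and H3T11ph. Of the 34 NONO regions 3 were (8.82%, against 2.01% of the whole list), as was 1 of the 12 H3T11ph regions (8.33%, against 5.75%). H3K27ac was met again at 33 of its 78 regions (42.3%, against 13.3%). Between antigens in NC, 2 of the 34 NONO regions overlapped H3T11ph (5.88%, against 2.95% of the list), both at NEAT1. One was on the stretch covered in all 6 lists. In the other the regions met only at their edges, NONO ending at chr11:65428386 and H3T11ph beginning at chr11:65428384. H3K27ac was overlapped by 12 of the 34 NONO regions (35.3%, against 16.8%), all at NEAT1 or MALAT1 except 1 at PSPC1. Of the 12 H3T11ph regions, 4 overlapped H3K27ac (33.3%, against 19.7%), all at NEAT1 or MALAT1.

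Of 15 other genes of paraspeckle proteins, NONO NC had a region in the window of 10, against 77.1% of protein-coding genes, and NONO NONO-KD in that of 9, against 51.5%. Within 1 kb of a start, or of either end for the 3 genes with no listed start, it was 4 and 3 of 15, against 18.6% and 6.40% of the genes of the promoter table. H3T11ph was there at 8 of 15 in NC and 7 in PKM2-KD, against 12.8% and 13.0%. H3K27ac was there at 15 of 15 in both, against 63.2% and 51.8%. The median NONO NC density of this list was 0.390 regions per 10 kb, close to the 0.379 of protein-coding genes. DAZAP1, an RNA-binding protein gene, stood apart within it with 20 NONO NC regions (5.25 per 10 kb) and 3 in NONO NONO-KD.

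The genes whose share of bases covered in the 6 lists was nearest to that of NEAT1 were SLC16A3, which encodes a lactate exporter, SNORD4B and SNORD42A. The Euclidean distance over the 6 values, as log2 of 1 plus covered bp per kb of window, was 0.466, 0.879 and 0.882. SLC16A3 held 17 NONO regions in NC and 6 in NONO-KD. Its H3T11ph counts were 5 and 8, and its H3K27ac counts 13 and 19. SNORD4B and SNORD42A are snoRNA genes that lie next to each other and share almost all of their window. Nearest to NONO were AARD (0.183), LINC02543 (0.298) and FABP5 (0.351), each with 0 NONO NC regions, 1 NONO NONO-KD region and 1 H3T11ph PKM2-KD region.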

How the data were processed

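CUT&Tag libraries of MDA-MB-231 cells were grouped by their titles, with 1 library per group. Per the submitters' processing notes, FastQC 0.11.9, cutadapt 1.18, SAMtools 1.3.1, MACS2 2.1.1.20160309 and hg38 were used; control, duplicate handling and aligner are not given in the sources used here. The authors deposited 1 list of called regions per library, with a score (10 times −log10 q), the fold over local background, and p and q as −log10 values. The smallest −log10 q was between 1.3023 and 1.31777. From fold and p, pileup and background were recovered on the assumption of a Poisson model, and 400 of 400 rows tried per list matched within 0.002 in −log10 p, as did 209 of the 210 member regions; H3K27ac NC needed a factor of 0.521. Genes and starts came from RefSeq (GRCh38.p14).

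Counts, covered bases and overlaps of at least 1 bp were computed with Python 3.11.15, pandas 2.3.3 and scipy 1.17.1, and checked on simulated lists. The members and lists were chosen with earlier results of these data known. Genes named were the 7 members, and the 3 most like NONO and NEAT1. For each member, the regions described were mainly taken from those of highest fold, those within 1 kb of a start and those shared between lists. Not every such H3K27ac region was described. DAZAP1, the backgrounds and the widths were singled out after values were seen. Alternatives were stricter q, wide regions, other windows, summits, equal list lengths and larger overlap.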

Additional observations from a re-analysis of the deposited data

How the results depend on the processing

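With windows of 10 kb, or regions placed by summit, the 9 counts and shares over the members moved by less than their interval. With a −log10 q of at least 5, H3K27ac PKM2-KD had 108% as many regions as NC, a reversal of the 67.9%, and 59.5% of H3K27ac NC regions were found again. With lists cut to equal length these values were 113%, also reversed, and 59.6%, and the NONO ratio rose from 44.1% to 75.0% (35.7% to 154%), an interval that includes equal counts. With wide regions alone the H3K27ac ratio reversed to 148% and the H3T11ph ratio was 400% (4 against 1). The share found again was then 40.0% for NONO (2 of 5), 100% for H3T11ph (1 of 1) and 85.7% for H3K27ac (18 of 21). Of the NONO NC regions 20.0% overlapped H3T11ph (1 of 5, 3.62% to 62.4%). The 1 wide H3T11ph NC region overlapped H3K27ac (100%, 20.7% to 100%), so both H3T11ph shares describe a single region. On the gene span without flanks the NONO ratio was 27.3%. Of the 7 H3T11ph NC regions there, 0% were found again and 0% overlapped H3K27ac. With an overlap of at least 50%, 0% of NONO NC regions were found again, 0% overlapped H3T11ph and 17.6% overlapped H3K27ac. That share was taken of the NONO NC region's own width. Member regions were 269 to 611 bp wide in NONO NC, 98 to 286 bp in NONO NONO-KD and 113 to 574 bp in H3T11ph NC. A narrow region could therefore fall short of 50% wherever it lay, so the 0% does not show separate positions. The narrow form of the H3K27ac NC list goes with the H3K27ac reversals, and the cause was not tested. Of 42 counts by gene and library, 36 stayed within 1.5 times at the stricter q and 12 with wide regions. No paired analysis was possible because the groups hold 1 library apiece, without replicate numbers. No library could be left out for the same reason, and the spread between replicates is unknown.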
